A study of Mus musculus with 2 samples.

Results

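The miR-181 family of the mouse is made from 6 hairpin genes that lie in 3 clusters of 2 genes each, Mir181a-1 with Mir181b-1, Mir181a-2 with Mir181b-2, and Mir181c with Mir181d. The genes were taken by symbol, as the rows whose Ensembl identifier carries one of these 6 names in GENCODE M21, and all 6 were found among the 1973 gene rows. Their small RNA was measured by microRNA sequencing of the embryonic hindbrain, the part of the brain that forms the cerebellum, pons and medulla, at 15.5 days. The samples form 1 group of strain B6NCrl with 2 biological replicates, each a pool of both sexes, from 78 embryos in replicate 1 and 62 in replicate 2. The series holds no treatment, mutant, other age or other tissue, so a level is a mean over whole dissected hindbrains, in which fewer cells of a type and less RNA per cell cannot be told apart. Both libraries carry the same donor label, and the p-values below measure counting error between these 2 libraries only.

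A microRNA gene is transcribed as a long precursor from which a hairpin is cut, and 1 or both arms of the hairpin, called 5p and 3p, are loaded into Argonaute as mature microRNAs. Bases 2 to 8 of the mature strand, the seed, pair with target messages, so microRNAs with the same seed are treated as a family. The miR-181 family is best known from developing lymphocytes, where miR-181a sets the sensitivity of thymocytes to antigen by repressing phosphatases of T cell receptor signalling, and it is also found in neurons and astrocytes.

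The mature sequences are shown to mark which of them are the same at more than 1 locus, since reads of these may be placed at several loci. They are the RefSeq sequences on build GRCm38.p6, 5′ to 3′, with the seed in capitals, and RefSeq entries matched all 6 genes. The 5p arms of all 6 genes carry the seed ACAUUCA, which no other mouse mature microRNA in that table has.
miR-181a-5p (Mir181a-1 and Mir181a-2): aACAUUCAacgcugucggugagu
miR-181b-5p (Mir181b-1 and Mir181b-2): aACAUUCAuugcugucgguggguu
miR-181c-5p (Mir181c): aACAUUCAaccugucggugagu
miR-181d-5p (Mir181d): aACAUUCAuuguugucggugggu
Positions are counted from 1 at the 5′ end, with the base of the first-named sequence before the position. The a and b forms differ by A9U, C10U and A21G over 23 bases, and the b and d forms by C12U alone. The c form equals the a form without its G at position 11.

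The 3p arms are shown because they differ between the genes that share a 5p arm. They fall under 4 seeds, CCAUCGA for miR-181a-1-3p and miR-181c-3p, CCACCGA for miR-181a-2-3p, UCACUGA for both miR-181b 3p forms and CCACCGG for miR-181d-3p.
miR-181a-1-3p: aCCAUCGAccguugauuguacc
miR-181a-2-3p: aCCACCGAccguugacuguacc
miR-181b-1-3p: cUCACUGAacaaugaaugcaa
miR-181b-2-3p: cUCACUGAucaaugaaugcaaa
miR-181c-3p: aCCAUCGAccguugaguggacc
miR-181d-3p: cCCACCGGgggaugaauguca
From the a-1 to the a-2 form the 3p arm changes by U5C and U16C, and from the b-1 to the b-2 form by A9U over 21 bases. No 3p arm of the family had an exact copy in another annotated microRNA hairpin.

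The 5p arms of 4 genes have an exact copy at a second locus. Mir181a-1 and Mir181a-2 share the longest stretch, 28 bases, and Mir181b-1 and Mir181b-2 share 26 bases. In the stretches printed here the capitals mark the bases beyond the mature 5p arm.
Stretch shared by Mir181a-1 and Mir181a-2: GaacauucaacgcugucggugaguUUGG
Stretch shared by Mir181b-1 and Mir181b-2: UCaacauucauugcugucgguggguu
The stretch of the a genes runs 4 bases past the 3′ end of the mature arm. That of the b genes ends with the mature arm, and the next base is G in Mir181b-1 and U in Mir181b-2. Mir181c and Mir181d share no stretch of 20 bases or more with any annotated microRNA hairpin, and all of their 68 and 51 windows of 22 bases were found in no other hairpin. In the other 4 genes 87.3% (Mir181a-2) to 92.6% (Mir181b-2) of such windows were.

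**Figure D1:**
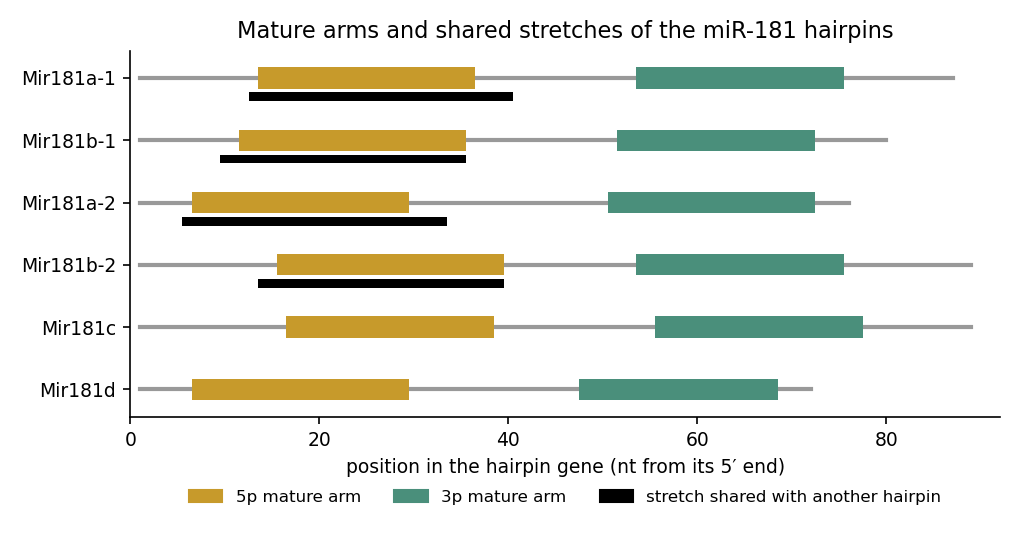
Position of the mature arms and of the shared stretch in each of the 6 hairpin genes, in nt from the 5′ end of the gene (x axis), 1 gene per line. The shared stretches cover the 5p arm of Mir181a-1, Mir181a-2, Mir181b-1 and Mir181b-2, and Mir181c and Mir181d have none.

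The deposited values are counts of reads per hairpin gene, which do not separate the 5p from the 3p arm. Of all reads, 35.4% in replicate 1 and 34.2% in replicate 2 were placed at several loci and are listed apart from the genes, 29.9 and 29.5 times as many reads as the family's own. In that layout a read of exactly the mature 5p arm of miR-181a or miR-181b would be given to no gene. How many of these reads belong to miR-181 cannot be read from the tables, so the levels of Mir181a-1, Mir181a-2, Mir181b-1 and Mir181b-2 are uncertain in this respect. For Mir181c and Mir181d no exact copy was found among annotated hairpins, the only sequences searched, and miR-181d-5p lies 1 mismatch from the miR-181b hairpins.

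On the genes' own strand lay 3937840 gene reads in replicate 1 and 4839647 in replicate 2, and every level is a count scaled by this total, in CPM. A count of 0 allows 3 reads, which corresponds to a limit of 0.762 CPM for replicate 1 and 0.620 CPM for replicate 2 from counting error alone. The labelled tissue was compared with microRNAs known from it. The Hox cluster genes Mir10a and Mir10b, known from the hindbrain and spinal cord, stood at 71261 and 39376 CPM (means of the 2 libraries). The rest of the Hox list was lower, Mir615 at 1511, Mir196b at 41.2, Mir196a-2 at 3.00 and Mir196a-1 at 0.230 CPM. Of 9 neural genes found 6 reached 10 reads in each library, Mir149 being the highest at 20337 CPM. The neural Mir124a genes, whose mature sequence comes from 3 loci, stood at 1.90 to 3.95 CPM. Of 7 striated muscle genes 4 had no read in either library, the Mir133 genes and Mir1a-1, and the 3 others summed to 0.00439% and 0.00574% of the gene reads. Mir133a-1 and Mir133a-2 are copies, as are Mir1a-1 and Mir1a-2, which was not found. Reads of a mature sequence that copies share would be given to no gene, so these zeros are uncertain. No copy in another annotated hairpin was found for the arms of Mir133b, or for the 1 arm of Mir1a-1 that was searched.

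The family as a whole held a near-constant share of the gene reads, 2.51% (95% exact interval 2.49 to 2.52) for replicate 1 and 2.52% (2.50 to 2.53) for replicate 2. In reads these were 98706 and 121748. All 6 genes reached 10 reads in each library, as did 372 of the 1973 genes, and their order was the same in both libraries, Mir181c, Mir181d, Mir181a-1, Mir181b-2, Mir181a-2 and Mir181b-1. The order was also the same when reads were divided by the length of the hairpin gene, from 72 bases in Mir181d to 89 in Mir181b-2 and Mir181c. By mean CPM the family ran from rank 16 (Mir181c) to rank 283 (Mir181b-1) of all genes.

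The cluster on chromosome 8 held most of the reads counted for the family. Mir181c (ENSMUSG00000065483, chr8:84178873-84178961, minus strand) and Mir181d (ENSMUSG00000076338, chr8:84178716-84178787, minus strand) lie 85 bases apart in an intron of Nanos3, a gene for an RNA-binding protein known from germ cells, on its strand. Positions are those of GENCODE M21 on mm10, and for Mir181c, whose identifier has an earlier version in the deposited table, the counted ends may differ. Mir181c had 46806 reads in replicate 1 and 57090 in replicate 2, or 11886 and 11796 CPM (mean 11841 ± 63.6, SD, n = 2). Mir181d had 27421 and 35360 reads, or 6963 and 7306 CPM (mean 7135 ± 242). Together they made up 1.88% (95% exact interval 1.87 to 1.90) of all gene reads for replicate 1 and 1.91% (1.90 to 1.92) for replicate 2, which is 75.6% ± 0.520 of the family's counted reads. The share within the family would fall if reads placed at several loci were given to the a and b genes. Of the genes outside the family, the nearest to Mir181c in level was Mir30a, at 9935 and 9863 CPM, and the nearest to Mir181d was Mirlet7b, of the let-7 family that rises as progenitors mature, at 6974 and 7485 CPM. Nearness is the distance between log2 CPM pairs over these 2 libraries, so it describes level and no pattern across conditions.

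In counted reads the cluster on chromosome 1 was carried by a single gene. Mir181a-1 (ENSMUSG00000065565, chr1:137966455-137966541, plus strand) and Mir181b-1 (ENSMUSG00000065458, chr1:137966639-137966718, plus strand) lie 97 bases apart in an intron of the noncoding gene Gm4258 and overlap an exon of the long noncoding gene A430106G13Rik, both on their strand. Mir181a-1 had 17321 reads in replicate 1 and 19682 in replicate 2, or 4399 and 4067 CPM (mean 4233 ± 235, SD, n = 2). Mir181b-1 had 79 and 101 reads, or 20.1 and 20.9 CPM (mean 20.5 ± 0.571), the lowest level of the family. The cluster held 0.442% (95% exact interval 0.435 to 0.448) and 0.409% (0.403 to 0.414) of the gene reads, or 16.9% ± 0.975 of the family's. Nearest in level stood Mir130b to Mir181a-1, with 4528 and 4031 CPM, and Mir190b to Mir181b-1, with 18.8 and 20.7 CPM.

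In the cluster on chromosome 2 the b gene had more counted reads than its partner. Mir181a-2 (ENSMUSG00000065423, chr2:38852735-38852810, plus strand) and Mir181b-2 (ENSMUSG00000065578, chr2:38853830-38853918, plus strand) lie 1019 bases apart, in an intron of Nr6a1 but on the strand opposite to it. Nr6a1 encodes an orphan nuclear receptor of the early embryo. Mir181a-2 had 825 reads in replicate 1 and 769 in replicate 2, or 210 and 159 CPM (mean 184 ± 35.8, SD, n = 2). Mir181b-2 had 6254 and 8746 reads, or 1588 and 1807 CPM (mean 1698 ± 155). Both together were 0.180% (95% exact interval 0.176 to 0.184) and 0.197% (0.193 to 0.201) of the gene reads, or 7.49% ± 0.455 of the family's. Nearest in level to Mir181a-2 was Mir223, a microRNA of myeloid cells, at 223 and 158 CPM, and nearest to Mir181b-2 was Mir770 at 1688 and 1694 CPM.

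**Figure D2:**
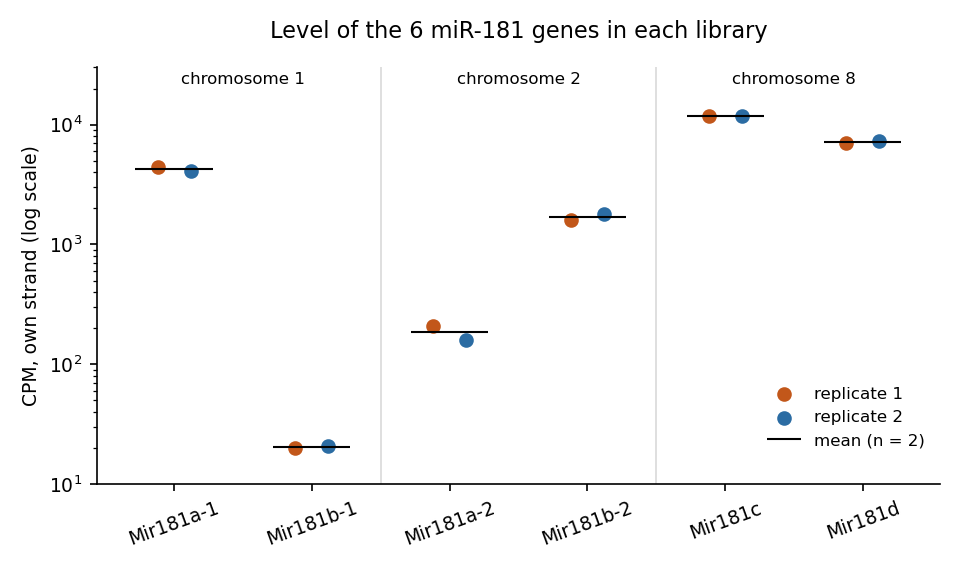
Level of each miR-181 gene in replicate 1 (left point) and replicate 2 (right point), in CPM on the gene's own strand (log y axis), with the mean of the 2 libraries as a line. Levels run from 20.5 CPM in Mir181b-1 to 11841 CPM in Mir181c, and the points of neighbouring genes in the order of levels do not overlap.

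Each step between neighbours in this order exceeded what either gene varied by from pool to pool. Mir181c exceeded Mir181d 1.71-fold in replicate 1 and 1.61-fold in replicate 2, and Mir181d exceeded Mir181a-1 1.58-fold and 1.80-fold. The next steps were 2.77-fold and 2.25-fold, of Mir181a-1 over Mir181b-2, and 7.58-fold and 11.4-fold, of Mir181b-2 over Mir181a-2. Even unpaired, a two-sided exact permutation test of 2 values against 2 cannot give a p below 0.33, so no p is given for these steps. They are steps in reads, since a bias between sequences that both libraries share is not seen in the spread.

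Genes of 1 cluster can be cut from a common precursor, and the ratio of their reads was compared between clusters. The log2 ratio of Mir181a-1 over Mir181b-1 was 7.78 in replicate 1 (95% exact interval 7.46 to 8.11) and 7.61 in replicate 2 (7.32 to 7.90), with intervals that overlap. That of Mir181a-2 over Mir181b-2 had the other sign, -2.92 (-3.03 to -2.82) and -3.51 (-3.62 to -3.40). Mir181c over Mir181d was nearest to equal at 0.77 (0.75 to 0.79) and 0.69 (0.67 to 0.71). The intervals cover counting error only, and for the clusters on chromosomes 2 and 8 those of the 2 libraries did not overlap. On chromosomes 1 and 2 these ratios rest on genes whose 5p reads can be placed at several loci.

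**Figure D3:**
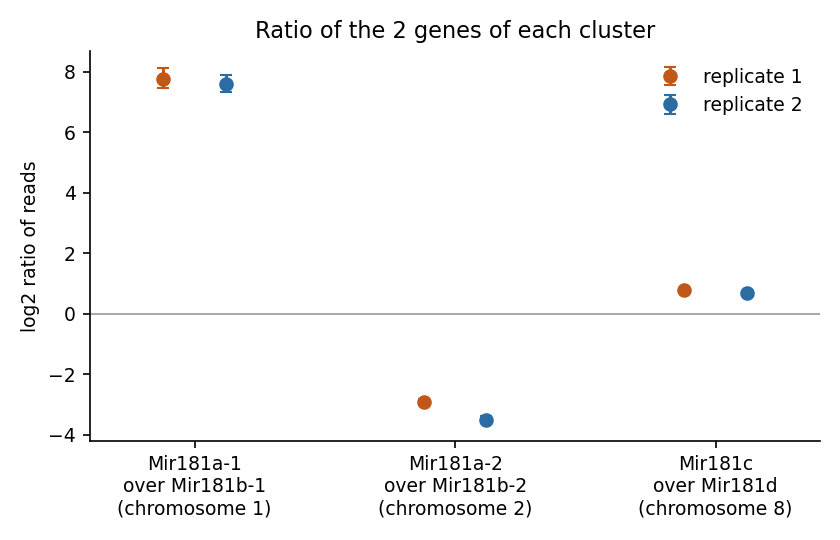
Log2 ratio of reads of the first gene over its partner in each cluster (y axis), in replicate 1 (left) and replicate 2 (right), with exact 95% intervals of counting error, smaller than the point for chromosomes 2 and 8. The ratio is 7.78 and 7.61 on chromosome 1, -2.92 and -3.51 on chromosome 2, and 0.77 and 0.69 on chromosome 8.

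The copies of each duplicated microRNA were unequal in opposite senses. For the a form the log2 ratio of Mir181a-2 over Mir181a-1 was -4.39 (95% exact interval -4.49 to -4.29) in replicate 1 and -4.68 (-4.78 to -4.57) in replicate 2. For the b form, Mir181b-2 exceeded Mir181b-1 79.2-fold and 86.6-fold, a log2 ratio of 6.31 (5.99 to 6.65) and 6.44 (6.15 to 6.73). Reads of the shared 5p arm that were placed at both loci are in neither count, so these are ratios of the reads that could be placed at 1 locus.

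Other microRNAs with copies at several loci were set beside them. Of a list of 40 such genes 38 were found, and the 35 of them that reached 10 reads in a library had a median level of 82.9 CPM, against 95.3 CPM for all 426 genes that did. Taken over all genes with RefSeq mature sequences and 10 reads in a library, the median was 184 CPM in the 39 genes with a copy of some but not every arm, the 4 miR-181 genes among them, 130.5 CPM in the 10 with a copy of every arm and 96.2 CPM in the 337 with none. The 184 CPM is the level of Mir181a-2 itself. The minimum of 10 reads was reached by 69.6% of 56, 21.3% of 47 and 41.5% of 813 genes of these groups. The medians thus cover unlike parts of the groups. The highest of the list of 40 were Mir128-1 (2333 CPM), a neuronal microRNA, Mir219a-2 (2118 CPM), known from oligodendrocytes, and Mir125b-1 (1816 CPM). The lowest of that list were Mir199a-1 (0.461 CPM), Mir194-1 (0.691 CPM) and Mir29b-1 (1.18 CPM). Of the miR-181 genes with a copied arm, Mir181a-1 stood above every gene of this list, by a description with no test. In 12 microRNAs of the list the highest and the lowest copy both reached 10 reads in each library. Their ratio ran from 1.00 (Mir125b) to 21.5 (Mir92), with a median of 3.38 (geometric means of the 2 libraries). By the same measure it was 82.8 for miR-181b and 23.2 for miR-181a. That minimum leaves out 6 microRNAs with a copy under 10 reads in a library, and in 2 of these the ratio was higher than the 79.2 and 86.6 of miR-181b. Mir9-3 over Mir9-2 was at 332 in replicate 1 (95% exact interval 152 to 905, on 6 reads of Mir9-2) and 184 in replicate 2 (115 to 316, on 17 reads). Mir194-2 over Mir194-1 was at 94.7 (32.1 to 462) and 108 (36.6 to 526), on 3 reads of Mir194-1 in each library, and these intervals hold the ratio of miR-181b.

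**Figure D4:**
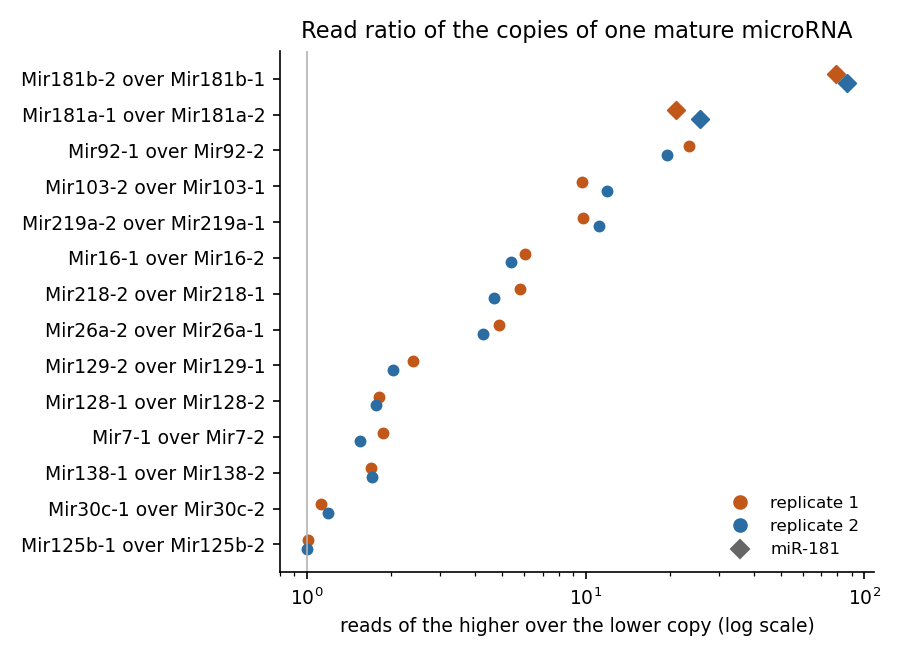
Reads of the higher over the lower copy of each duplicated microRNA (log x axis) in replicate 1 and replicate 2, with the miR-181 pairs as diamonds and only pairs plotted whose lower copy reached 10 reads in each library. Among these Mir181b-2 over Mir181b-1 lies furthest right at 79.2 and 86.6, and Mir125b-1 over Mir125b-2 lies at 1.00 in both libraries. The pairs of Mir9 and Mir194, left out, had higher ratios. That of Mir194 rests on 3 reads of Mir194-1 in each library, and its intervals hold the ratio of miR-181b.

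The pools were then compared gene by gene, to see how far the family varies between biological replicates. After TMM scaling, 5 of the 6 genes differed beyond counting error, 3 higher and 2 lower in replicate 1, by the exact binomial test with Benjamini-Hochberg adjustment over all 426 genes tested. Of all genes tested 35.9% passed, 20.7% being higher and 15.3% lower in replicate 1. Deeply read genes pass this test at small differences. The median size of the log2 difference was 0.09 over the 6 genes and 0.17 over all genes tested. No member differed by 1.5-fold, which 5.4% of the tested genes did past the threshold. Neither comparison is matched for depth, since the tested genes had a median of 95.3 CPM and only Mir181b-1 of the members lay below it. Over the 208 genes of at least 100 CPM the SD of the log2 ratio was 0.18. When edgeR's exact test allowed each gene a coefficient of variation of 0.1, near the 10.5% estimated from these same 2 libraries, none of the 6 was called and none had an unadjusted p under 0.05, against 1.41% of all genes called and 32 with an unadjusted p under 0.05. That estimate includes the difference being tested, so it is no independent support for the setting.

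Mir181a-2 differed most, at 210 CPM in replicate 1 and 159 CPM in replicate 2, a log2 ratio of replicate 1 over replicate 2 of 0.42 (95% exact interval 0.27 to 0.56, adjusted p = 6.23e-08 by the exact binomial test). This is 1.33-fold. The leukocyte genes moved the same way, 3 of 4 tested being higher in replicate 1 by the same test, with Mir223 at a log2 ratio of 0.51. Of all 426 genes tested, 20.7% were higher in replicate 1 by this test. The 5 leukocyte genes found summed to 0.0604% of gene reads for replicate 1 and 0.0476% for replicate 2. Of these 5, Mir142b had no read. Erythroid genes were higher in replicate 1 for 2 of 3 and summed to 0.0203% and 0.0159%, and mesenchymal genes for 3 of 5 tested and summed to 0.662% and 0.591%. Mir126a, of endothelial cells, was also higher in replicate 1, at 25702 CPM against 22600 CPM in replicate 2. The part of these cells in the value of Mir181a-2 was not tested.

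Its neighbour Mir181b-2 was lower in replicate 1, at a log2 ratio of -0.17 (-0.22 to -0.12, adjusted p = 8.44e-12 by the exact binomial test). Of 5 Hox cluster genes tested 4, and of 9 neural genes 4, were also lower in replicate 1 by that test, against 15.3% of all 426 genes tested. Mir149, the highest neural gene, was higher at a log2 ratio of 0.05. The Hox list summed to 9.21% of gene reads for replicate 1 and 13.2% for replicate 2, and the neural list to 3.23% and 3.35%. The part of their tissue in the value of Mir181b-2 was not tested.

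Mir181a-1 was higher in replicate 1 by a log2 ratio of 0.13 (0.10 to 0.16, adjusted p = 5.55e-17 by the exact binomial test), and Mir181d was lower, at a log2 ratio of -0.05 (-0.08 to -0.03, adjusted p = 3.24e-05). Mir181b-1, with the fewest reads, was at -0.04 (-0.48 to 0.40, adjusted p = 0.938) and a difference of that size was not detectable at its depth. Mir181c, the most abundant, was at 0.03 (0.01 to 0.05, adjusted p = 0.00717). That call was lost with DESeq2 size factors (adjusted p = 0.278) and in each of the other 6 alternatives, and the sign turned without the filter on low counts. The genes with a and c forms summed to 16494 CPM in replicate 1 and 16022 CPM in replicate 2, and those with b and d forms to 8572 and 9134 CPM, a grouping made after the values were seen and not tested.

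**Figure D5:**
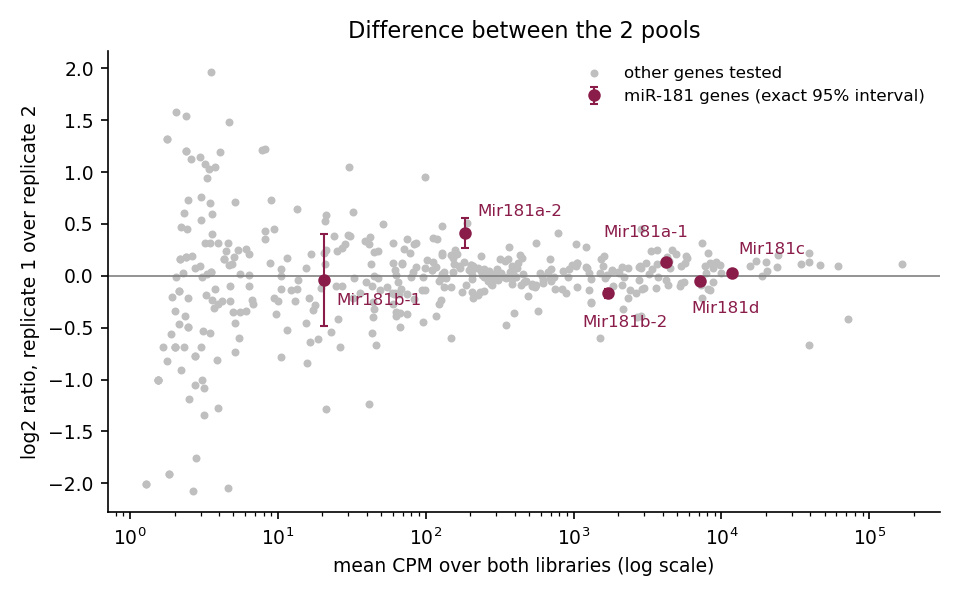
Log2 ratio of replicate 1 over replicate 2 after TMM scaling (y axis) against mean CPM (log x axis) for the genes tested, leaving out those with no read in 1 of the libraries, with the 6 miR-181 genes and their exact 95% intervals of counting error. The members lie between -0.17 and 0.42, and that of Mir181c, at 0.03, turns sign without the filter on low counts.

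No read lay on the strand opposite to any of the 6 genes in either library. Over the family this allows up to 0.00304% of its own-strand reads in replicate 1 and 0.00246% in replicate 2. Over all genes, opposite-strand reads came to 2.27% and 2.14% of the own-strand reads. These are totals of reads, and the share of other genes with no opposite-strand read is not given here. The absence is therefore not shown to be particular to the family. Genes are annotated on that strand at 4 of the hairpins, an intron of the long noncoding gene Gm26936 at the chromosome 1 pair, an intron of Nr6a1 at the chromosome 2 pair, and at Mir181b-2 also an exon of Gm44144.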

How the data were processed

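Small RNA of 2 pools of mouse hindbrain was sequenced. The authors deposited read counts per microRNA gene, on mm10 with GENCODE M4 per the authors' notes on the files. No aligner, trimming step or counting tool is named in the sources used here. The tables have 3 count columns (both strands together, 1 strand, the other), in the layout of STAR's gene counts, so reads placed at several loci being given to no gene is inferred from that layout. The column with the larger single-strand total was used as the gene's own strand. Rows naming no gene, 51.6% and 53.0% of reads, were left out of totals and tests.

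Symbols, positions and hairpins were taken from GENCODE M21 (1894 of 1973 identifiers), mature arms from RefSeq. Shared stretches of at least 20 nt were searched among M21 microRNA hairpins on both strands, not the genome.

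Libraries were compared over genes with at least 10 reads in 1 library by an exact two-sided conditional binomial test on TMM-scaled totals (edgeR 4.0.16, R 4.3.3; Python 3.11.15, scipy 1.17.1), Benjamini-Hochberg threshold 0.05. With 1 group, edgeR's quasi-likelihood fit has no contrast. Shares have Clopper-Pearson 95% intervals. Reads carry no molecular identifiers, so intervals and floors cover counting error only. Alternatives were DESeq2 1.42.0 size factors, library totals, count minimums of 1 and 50, both strands together, edgeR's exact test at set coefficients of variation, all reads as total, and each library alone.

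The family, the lists and the tests were chosen with earlier results of these data known. The genes named are the 6 members, for each member the gene nearest in log2 CPM, and the 3 highest and 3 lowest of the duplicated list. Marker genes and further copies are named to complete a list.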

Additional observations from a re-analysis of the deposited data

How the results depend on the processing

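No paired analysis was possible because the series has 1 group. Of 426 genes 153 differed between the pools by the binomial test, 6 with edgeR's exact test at a coefficient of variation of 0.1 and 0 at 0.2, where 12 had an unadjusted p under 0.05. With each gene of at least 1 read admitted, 65 of 137 calls were higher in replicate 1, against 88 of 153. Mir181c then turned to a log2 ratio of -0.0034 (adjusted p = 0.918 by the binomial test). Its adjusted p ran from 0.00717 to 1 over all settings, and its call was lost in each alternative. The calls of Mir181a-1, Mir181a-2, Mir181b-2 and Mir181d were lost only at a set coefficient of variation. Over all reads as total, the family stood at 11719 CPM, and the clusters on chromosomes 1, 2 and 8 at 0.199%, 0.0878% and 0.886%. Over both strands the family stood at 24570 CPM and the chromosome 8 cluster at 1.86%. Each library alone gave log2 ratios of 7.61 to 7.78, -3.51 to -2.92 and 0.69 to 0.77 for the clusters on chromosomes 1, 2 and 8. Reads placed at several loci limit the levels of the 4 genes with a copied arm, and depth limits Mir181b-1.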
